A study of Mus musculus with 4 samples.

Results

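The genes described here are the 4 Notch receptors, 3 of their ligands and 3 transcriptional effectors, measured by RNA sequencing in mouse lung endothelial cells: Notch1, Notch2, Notch3, Notch4, Dll4, Jag1, Jag2, Hey1, Hey2 and Hes1. They were taken by symbol from the deposited table, which holds all 10 of them among its 23997 genes. The cells came from C57BL/6 mice and line the blood vessels of the lung. All received an siRNA for 48 h: a control siRNA, or a GR siRNA that targets Nr3c1, the gene of the glucocorticoid receptor (GR), which is a steroid-activated transcription factor. In each siRNA arm 1 culture condition received no steroid and 1 received dexamethasone (DEX), a synthetic glucocorticoid, at 100 nM for 18 h. All cells grew in EBM-2 medium with 10% serum, which the conditions therefore share. The GR siRNA targets the mRNA of the receptor without deleting its gene, and receptor protein is not measured by these data. The series describes triplicates, whereas the table has 1 column per condition, so no value below has an SD, an n or a p-value, and every difference is between columns with no replicate check.

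Notch receptors are single-pass membrane proteins that are activated by Delta-like and Jagged ligands on a neighbouring cell. Binding lets ADAM proteases and then gamma-secretase cut the receptor, and the freed intracellular domain joins the DNA-binding protein RBPJ and a Mastermind co-activator to switch on genes of the HES and HEY families, which encode repressors. In blood vessels the pathway is known for arterial identity, for the choice between tip and stalk cells during sprouting, and for signalling from endothelium to mural cells.

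The promoters of the ligands and receptor that differed most between the siRNA arms are shown first, because the study is about GR and these genes went in opposite directions. RefSeq windows on GRCm38.p6 matched 8 of the 10 genes; Hey1 and Hes1 were not among them. Each line gives the 250 bases before the RefSeq start site, 5′ to 3′ on the gene's own strand. The strand is plus for Dll4 and Notch4 and minus for Jag1. Gene spans given below are from GENCODE and can start elsewhere. By those spans the Jag1 and Notch4 windows reach into their genes, as do those of Notch2 and Hey2, searched below. The searched windows of Notch1 and Jag2 lie wholly inside theirs. Capitals mark CACNAG, a motif bound by HES and HEY proteins, where N is any base.
Jag1, chr2:137116521-137116770: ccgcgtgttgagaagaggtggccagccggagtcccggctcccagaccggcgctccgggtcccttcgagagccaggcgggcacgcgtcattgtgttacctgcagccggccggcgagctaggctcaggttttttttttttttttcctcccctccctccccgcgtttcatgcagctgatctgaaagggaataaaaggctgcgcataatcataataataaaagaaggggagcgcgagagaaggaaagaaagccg
Dll4, chr2:119325534-119325783: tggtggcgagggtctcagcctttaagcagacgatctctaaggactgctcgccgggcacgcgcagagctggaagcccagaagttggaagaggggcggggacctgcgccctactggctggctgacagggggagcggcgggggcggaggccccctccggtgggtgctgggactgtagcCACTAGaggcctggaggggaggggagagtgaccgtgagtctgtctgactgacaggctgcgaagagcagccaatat
Notch4, chr17:34564045-34564294: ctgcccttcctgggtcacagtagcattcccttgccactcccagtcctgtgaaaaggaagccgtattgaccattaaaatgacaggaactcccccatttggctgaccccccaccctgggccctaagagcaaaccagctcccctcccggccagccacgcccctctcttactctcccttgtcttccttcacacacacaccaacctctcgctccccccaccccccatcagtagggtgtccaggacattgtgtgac

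Windows from 250 bases before to 50 after the start were searched on both strands. The GR palindrome, AGAACA followed by any 3 bases and its reverse complement, was found in 3 of 32851 promoters (0.00913%) and in none of the 8 windows. Its left arm alone, AGAACA, was in 19.0% of all promoters and also in none of the 8. CACNAG occurred in 42.5% of all promoters, and among the windows in those of Notch1, Notch2, Notch3 and Dll4. CACGTG, the E-box preferred by HEY proteins, was in 7.15% of promoters and in none of these. These are matches of letters in short windows and say nothing of binding.

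Hey2 was the 1 window that held the RBPJ motif CGTGGGAA, and it held the motif at 2 places. Only 4 of the 32851 promoters (0.0122%) had 2 or more copies, against 0.734% with at least 1, and the shorter core TGGGAA, which lies inside it, was in 25.6%. Both sites are shown on the minus strand of chromosome 10, which Hey2 is read from, with the motif or its reverse complement in capitals. Their first bases lie at −207 and −5, where −1 is the last base before the start.
Hey2, reverse complement at −207, chr10:30842972-30843001: gcgcggtggcaTTCCCACGcctctgccaac
Hey2, motif at −5, chr10:30842770-30842799: ctgggctgcagCGTGGGAAagaacctccag

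Values are FPKM, fragment counts scaled to transcript length and library size, so levels of different genes can be compared per length. In genes of low abundance the value of 1 fragment can be read, and it placed the depth of the columns at about 34700000 fragments for control siRNA, 49400000 with DEX added, 51400000 for GR siRNA and 42900000 for GR siRNA with DEX. Nr3c1, the targeted gene, stood at 14.4 and 14.3 FPKM in the control columns and at 5.45 and 5.32 FPKM in the GR siRNA columns. The 8 endothelial markers listed all exceeded 1 FPKM, with sums of 1809 to 2022 FPKM. Of 10 mural markers only Acta2 and Tagln reached 1 FPKM, Rgs5 was listed at 0 and Pdgfrb did not exceed 0.282 FPKM. Of 6 fibroblast markers Col3a1 and Dcn reached 1 FPKM, and the list summed to 2.01 to 2.29 FPKM in the control columns and 4.92 to 5.21 FPKM in the GR siRNA columns. The leukocyte markers Ptprc and Cd3e were listed at 0 while Cd68 stood at 161 to 218 FPKM, and Adgre1 was not matched. Epithelial markers summed to 3.57 to 4.13 FPKM. The lymphatic markers Lyve1 and Flt4 were present without Prox1 (at most 0.179 FPKM) or Ccl21a (listed at 0).

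Notch4 was the most abundant receptor, Notch1 came next, Notch2 was near 1 FPKM and Notch3 was close to 0. Notch4 (chromosome 17, 34564268 to 34588503, plus strand), a receptor found mainly in endothelium, stood at 68.4 FPKM with control siRNA, 68.7 with DEX added, 62.0 with GR siRNA and 52.0 with GR siRNA and DEX. Both GR siRNA columns were below both control columns. On the log2(FPKM + 1) scale used for all differences below, the GR siRNA column differed from the control column by −0.14 without DEX and by −0.39 with DEX, and the lowest column was the one with both treatments.

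Notch1 (chromosome 2, 26457903 to 26516663, minus strand), which is required for embryonic vessel development, stood at 22.7 FPKM with control siRNA, 21.3 with DEX added, 26.8 with GR siRNA and 23.0 with GR siRNA and DEX. The GR siRNA columns lay above the control columns, by 0.23 without DEX and by 0.11 with DEX. The nearest columns of the arms, at 22.7 and 23.0 FPKM, carry counting errors of about 1.2% and 1% and differ by a similar amount. Of its annotated exonic bases, 10.4% are covered by antisense genes, and no source used here states whether the authors counted by strand.

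Notch2 (chromosome 3, 98013527 to 98150361, plus strand), a broadly expressed receptor, stood at 1.5, 1.43, 1.6 and 1.43 FPKM in the same column order, and the arms overlapped. Notch3 (chromosome 17, 32120820 to 32166852, minus strand), the receptor typical of mural cells, was at 0.0101, 0.0023, 0.0158 and 0.0195 FPKM. These values rest on roughly 3, 1, 7 and 7 fragments, so no fold is given. Of the 10 mural markers listed, the pericyte marker Rgs5 was at 0 in the same columns. Acta2 (5.60 to 8.82 FPKM) and Tagln (7.04 to 8.76 FPKM) were above 1 FPKM in all of them. Of the summed FPKM of the receptors, Notch4 made up 73.9% with control siRNA, 75.2% with DEX added, 68.6% with GR siRNA and 68.0% with both, while the share of Notch1 was 24.5%, 23.3%, 29.6% and 30.1%. The ratio of Notch4 to Notch1, which no rescaling of a column can alter, was 3.01 and 3.23 in the control columns and 2.32 and 2.26 in the GR siRNA columns.

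**Figure D1:**
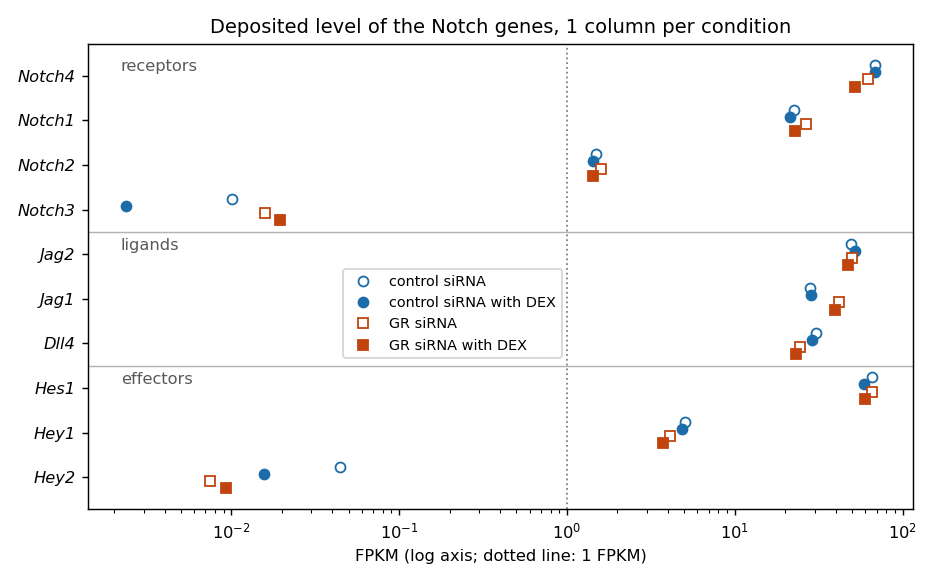
FPKM on a log axis of the 10 genes, with a point for each condition. Control siRNA is drawn as circles and GR siRNA as squares, filled where DEX was added. Notch4, Jag2 and Hes1 lie between 47.5 and 68.7 FPKM, while Notch3 and Hey2 do not exceed 0.0447 FPKM, where the points rest on 1 to 7 fragments.

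All 3 ligands were expressed well above 1 FPKM, and with GR siRNA Jag1 was higher and Dll4 lower. Jag1 (chromosome 2, 137081456 to 137116644, minus strand), a ligand that endothelium presents to mural cells and that competes with Dll4 during sprouting, stood at 28.0 FPKM with control siRNA and 28.7 with DEX added, against 41.8 with GR siRNA and 39.6 with GR siRNA and DEX. The arms did not overlap. The differences between the arms were 0.56 without DEX and 0.45 with DEX, while DEX within an arm went with 0.03 and −0.08. On the linear scale the ratio between the arms was 1.5 and 1.38. Counting error was between 0.91% and 1.4% per column.

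Dll4 (chromosome 2, 119325784 to 119335962, plus strand), the Delta-like ligand of arterial and tip endothelial cells, stood at 30.7 FPKM with control siRNA, 28.9 with DEX added, 24.4 with GR siRNA and 23.3 with GR siRNA and DEX. The arms did not overlap here either, with differences of −0.32 and −0.30, both short, before rounding, of the threshold of 0.32 used below. An antisense gene covers 5.56% of its exonic bases.

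Jag2 (chromosome 12, 112907819 to 112929776, minus strand), the second Jagged ligand, was the most abundant of the 3, at 49.2 FPKM with control siRNA, 52.4 with DEX added, 50.2 with GR siRNA and 47.5 with both. Its arms overlapped, and the differences of 0.03 and −0.14 had opposite signs, which they lost (−0.08 and −0.09) when each column was centred on genes of like GC content and length. Dll4 and Jag1 were near each other in the control columns and apart in the GR siRNA columns: the ratio of Jag1 to Dll4 was 0.91 and 0.991 with control siRNA and 1.71 and 1.70 with GR siRNA. The share of Jag1 in the summed FPKM of the 3 ligands was 25.9% and 26.1% with control siRNA and 35.9% in both GR siRNA columns, and that of Dll4 was 28.5% and 26.3% against 21% and 21.1%. The sum itself ran from 107.9 to 116.5 FPKM. With Dll1, a further ligand described below, in the sum, the share of Jag1 was 16.9% and 17.3% against 23% and 22.7%. That of Dll4 was then 18.6% and 17.5% against 13.4% and 13.3%.

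**Figure D2:**
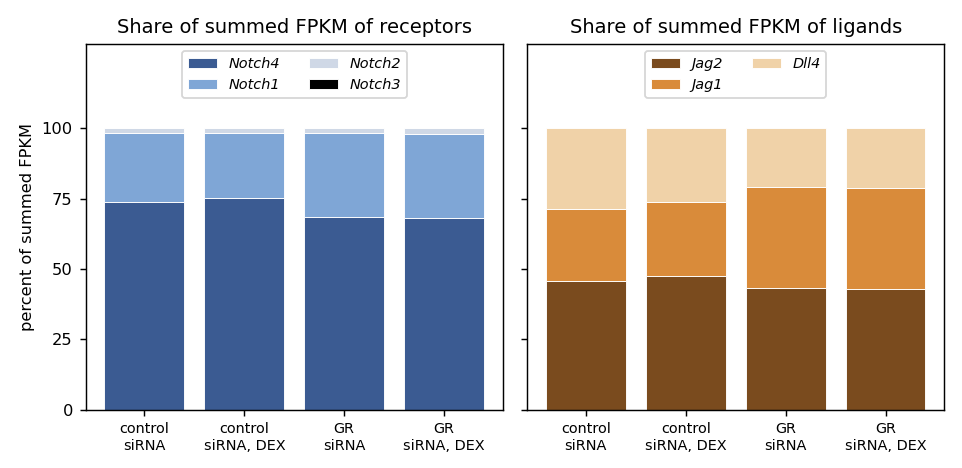
Stacked bars of the percent of summed FPKM taken by each receptor (left) and by Jag2, Jag1 and Dll4 (right, Dll1 not included) in the 4 conditions. The Jag1 segment grows from 25.9% to 35.9% between the columns without DEX and the Dll4 segment shrinks from 28.5% to 21%; Notch3, at most 0.0255%, is too small to see.

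Among the effectors Hes1 was abundant, Hey1 low and Hey2 near 0. Hes1 (chromosome 16, 30064384 to 30067796, plus strand), a repressor that many signals besides Notch induce, stood at 65.5 FPKM with control siRNA, 59.1 with DEX added, 65.8 with GR siRNA and 60.1 with both. Its siRNA arms overlapped (differences of 0.01 and 0.03), whereas both DEX columns were below both columns without DEX (differences of −0.15 and −0.13). Hey1 (chromosome 3, 8663359 to 8667256, minus strand), a direct Notch target in endothelium, stood at 5.02, 4.88, 4.12 and 3.76 FPKM in the same order. Both GR siRNA columns were the lower ones, by −0.23 without DEX and −0.31 with DEX, on about 390 to 584 fragments with a counting error of 4.1% to 5.1%. Hey2 (chromosome 10, 30832359 to 30842801, minus strand), an arterial relative of Hey1 and the gene with the paired RBPJ motifs shown above, was at 0.0447, 0.0156, 0.0075 and 0.0093 FPKM. These amount to roughly 4, 2, 1 and 1 fragments and allow no comparison.

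Ordered by the mean over the columns, Notch4 and Hes1 (62.8 and 62.6 FPKM) were nearly equal, and their ranges across conditions overlap. Jag2 (49.8 FPKM) followed, then Jag1 (34.5), Dll4 (26.8) and Notch1 (23.4), and after them Hey1 (4.45) and Notch2 (1.49). In 8 of the 10 genes at least 1 column compared reached 1 FPKM, and counts of members below refer to those 8, leaving out Notch3 and Hey2. Jag1 and Dll4 overlapped in range, as did Dll4 and Notch1, and Jag1 was above Dll4 in the GR siRNA columns but below it in both control columns. Notch4 was above Hes1 in both control columns and below it in both GR siRNA columns.

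**Figure D3:**
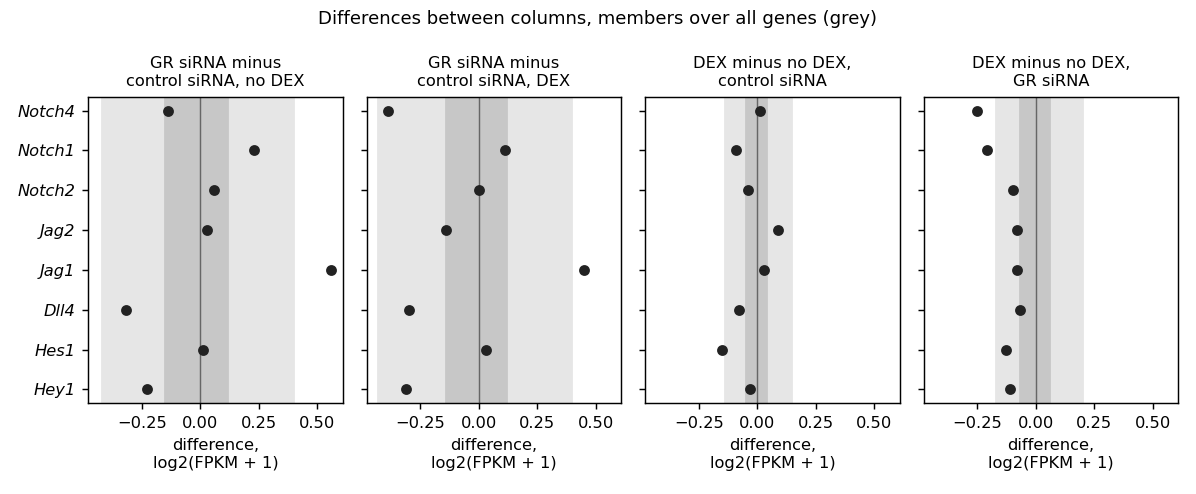
Difference between columns on the log2(FPKM + 1) scale for the 8 measured genes (points) in the 4 comparisons; dark grey spans the quartiles of all genes and light grey the range from percentile 5 to percentile 95. With GR siRNA the Jag1 point stands at 0.56 and 0.45 and the Dll4 point at −0.32 and −0.30, and in the last panel all 8 points lie left of 0.

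The siRNA differences of the members were read against those of all genes. The median size, regardless of sign, was 0.18 without DEX and 0.22 with DEX over the members, beside 0.13 for all genes in each. Thresholds of 0.32 and 0.58 on the log2 scale were used, the second being 1.5-fold. Without DEX, 1 of 8 (Jag1) passed 0.32, where 16.6% of 11325 genes did in either direction. None passed 1.5-fold, where 4.90% did, though Jag1 at 0.56 was only just short of it. With DEX, 2 of 8 (Jag1 higher, Notch4 lower) passed 0.32 against 16.5% of 11344 genes, and none passed 1.5-fold against 4.98%. The siRNA arms did not overlap for 5 of the 8, with Notch1 and Jag1 above and Notch4, Dll4 and Hey1 below, and 68.9% of all 11445 measured genes showed no overlap by the same rule. The columns of an arm differ in DEX and are not replicates. The median over the members was 0.02 without DEX and −0.07 with DEX, beside −0.01 for all genes in each. Jag1 was the member farthest out: among genes of at least 5 FPKM, 95% had a smaller difference without DEX and 91.8% with DEX.

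DEX differences were smaller. None of the 8 passed 0.32 in either arm, where 1.91% of 11227 genes did with control siRNA and 2.23% of 11310 with GR siRNA. In the control arm 5 were lower and 3 (Notch4, Jag1 and Jag2) higher with DEX, where 52.6% of all genes were lower. In the GR siRNA arm all 8 were lower, with a median of −0.10, where 51.9% of all genes were lower and the median was 0.00. The larger values were those of Notch4 (−0.25) and Notch1 (−0.21). Notch1, Notch2, Dll4, Hey1 and Hes1 were lower with DEX in both arms, as were 27.6% of all genes. Both DEX columns lay below both others for Hes1 and Notch2, which 8.30% of all genes did. For Notch2 the nearest columns, at 1.5 and 1.43 FPKM, carry counting errors of about 4.3% and 3.7% and differ by a similar amount.

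Base composition moved with the siRNA difference without DEX, and base composition and length with the DEX difference in GR siRNA cells. The GR siRNA column without DEX is in both comparisons, as the baseline in the latter, and the GC trends have opposite signs. For GR siRNA without DEX, the tenth of genes with the lowest GC content had a median of −0.09 and the tenth with the highest 0.05, against −0.01 and −0.03 with DEX. For DEX in GR siRNA cells, over 10929 genes with an annotated transcript, the tenth of genes with the highest GC content had a median of −0.06 and the tenth with the lowest 0.05, and the longest of 3 length classes had −0.04 against 0.03 for the shortest. Several members are GC-rich or long: 97.6% of genes have a lower GC content than Notch4 (61.2%), 98.2% a lower one than Jag2 (61.9%), and 97.4% are shorter than Notch1. With each column centred on genes of like GC content and length, 7 of the 8 were lower with DEX in the GR siRNA arm. Of all genes 50.5% were lower in that setting. The median over the members was −0.08, and Notch4 stood at −0.13, Notch1 at −0.13, Hes1 at −0.18 and Jag2 at 0.04. In the same setting the siRNA differences were 0.56 and 0.46 for Jag1, −0.36 and −0.27 for Dll4, −0.25 and −0.35 for Notch4, and 0.14 and 0.13 for Notch1.

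The wider pathway comprised 78 other genes in 8 lists, all in the table, of which 64 reached 1 FPKM in at least 1 column. With GR siRNA and no DEX, 4 of 63 were higher by over 0.32 and 6 lower, where 7.70% and 8.86% of all genes were. Between the DEX columns the counts were 3 and 10 of 64, where 7.78% and 8.69% of all genes were. Past 1.5-fold stood 1 higher and 2 lower without DEX, and 1 higher and 4 lower with DEX, where 2.36% of all genes were higher in each state and 2.54% and 2.62% lower.

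The other ligands included the most abundant canonical one. Dll1, a Delta-like ligand that is not among the 3 above, stood at 57.2 and 55.7 FPKM in the control columns and at 65.7 and 64.4 FPKM in the GR siRNA columns, above Jag2 in every column. Egfl7, a secreted endothelial protein reported to bind Notch, was at 521 and 516 FPKM against 424 and 410 FPKM. Mfap5, a microfibril protein that can also bind Notch1, was at 3.19 and 3.52 FPKM against 4.39 and 5.12 FPKM. Dlk1 was listed at 0, and Dll3, Dlk2 and Dner did not reach 0.1 FPKM.

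All 6 glycosyltransferase genes that modify the receptors were lower with GR siRNA in both DEX states, by a median of −0.10 and −0.19. Of all genes, 52.8% and 51.8% were lower in each state by itself, and the share lower in both was not counted. With DEX 1 (Lfng) was lower by over 0.32, where 8.69% of all genes were. Lfng encodes a Fringe enzyme whose sugar favours Delta-like over Jagged ligands, and its level was 37.7 and 39.2 FPKM in the control columns against 31.7 and 29.9 FPKM. Poglut1, which adds glucose to the receptor, was at 25.8 and 26.0 FPKM against 22.7 and 22.5 FPKM. Rfng, another Fringe, was at 8.49 and 8.44 FPKM against 7.85 and 7.27 FPKM. Of 8 protease genes measured none passed 0.32 in any comparison. Between the siRNA arms 16.6% of all genes did without DEX and 16.5% with DEX. For DEX 1.91% did with control siRNA and 2.23% with GR siRNA. The sheddase Adam17 was at 26.9 and 26.2 FPKM against 22.6 and 21.4 FPKM, and Furin, which cuts the receptor during its maturation, at 86.0 and 86.2 FPKM against 79.8 and 71.5 FPKM.

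Among 10 measured genes of endocytosis and turnover 1 was past 1.5-fold, with DEX, where 4.98% of all genes were. It was Neurl1b, a ubiquitin ligase for the ligands. Its control columns read 7.15 and 7.22 FPKM and its GR siRNA columns 5.99 and 4.13 FPKM, the last with DEX. Numbl was at 5.59 and 5.54 FPKM against 5.28 and 4.4 FPKM, and the Deltex gene Dtx2 at 8.83 and 8.65 FPKM against 7.77 and 7.54 FPKM. Rbpj itself stood between 9.80 and 10.8 FPKM in all columns. In the nuclear complex the acetyltransferase Kat2b differed most of the pathway genes that were lower, at 16.1 and 14.9 FPKM with control siRNA against 7.22 and 7.14 FPKM with GR siRNA (−1.06 and −0.96). The related co-activators Ep300 (8.65 and 8.16 against 10.0 and 9.49 FPKM) and Crebbp (4.84 and 4.86 against 6.39 and 4.98 FPKM) were not lower. Of the co-repressors, Kdm5a was at 7.56 and 7.39 FPKM against 6.05 and 5.35 FPKM, Cir1 at 13.7 and 13.1 against 10.5 and 10.9 FPKM, and Tle4 at 6.86 and 6.87 against 8.05 and 8.22 FPKM.

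Genes listed as other Notch targets or relatives of them went in both directions, and being listed does not mean that Notch raises a gene. Nrarp, a feedback inhibitor that Notch induces, was at 76.0 and 74.3 FPKM against 53.9 and 48.5 FPKM (−0.49 and −0.61). Hes6 was at 14.4 and 14.0 FPKM against 10.4 and 10.1 FPKM. Cdkn1a, a cell cycle inhibitor with many inputs, was at 92.8 and 99.2 FPKM against 60.0 and 61.8 FPKM. The arterial connexins were higher instead. Gja4 (connexin 37) stood at 7.64 and 7.95 FPKM against 18.5 and 17.8 FPKM (1.17 and 1.07), and Gja5 (connexin 40) at 10.8 and 11.5 FPKM against 15.2 and 16.1 FPKM. Efnb2, the arterial ephrin ligand, was at 154 and 150 FPKM against 135 and 123 FPKM. Hes5 was listed at 0 and Heyl was at most 0.0301 FPKM.

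Of 10 factors of arterial and venous fate, 1 was lower by over 0.32 without DEX and 2 with DEX, where 8.86% and 8.69% of all genes were. None was past 0.32 in the other direction, where 7.70% and 7.78% of all genes were. Foxc1, a forkhead factor that acts upstream of Dll4 in arterial cells, was at 4.10 and 4.58 FPKM against 2.87 and 2.83 FPKM. Its relative Foxc2 was at 9.69 and 10.7 FPKM against 8.41 and 7.56 FPKM, and Sox18 at 513 and 551 FPKM against 473 and 450 FPKM. With DEX in GR siRNA cells 48 of the 63 measured pathway genes were lower, where 51.9% of all genes were. After centring on GC content and length 40 were lower, where 50.5% of all genes were. Both counts have the 1 GR siRNA column without DEX as baseline.

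**Figure D4:**
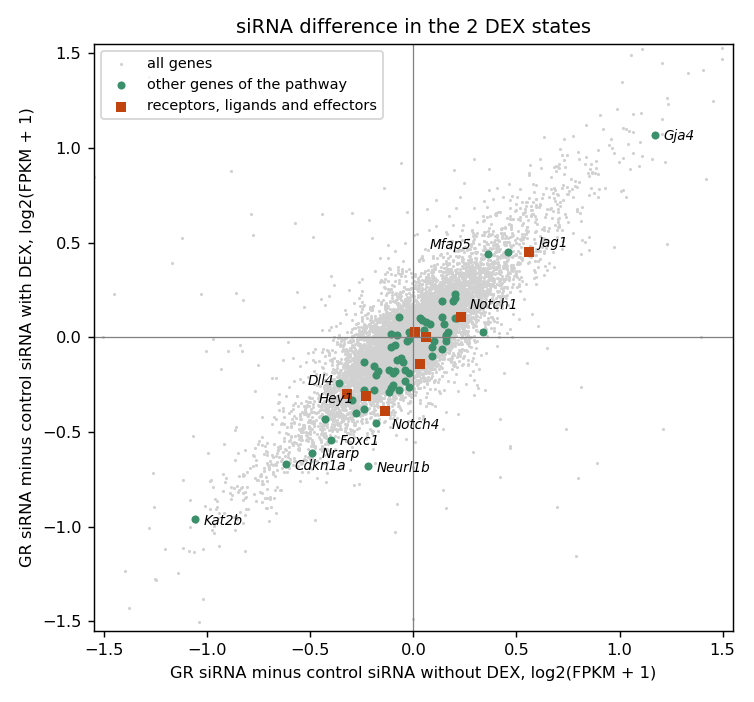
Difference between GR siRNA and control siRNA on the log2(FPKM + 1) scale without DEX (x axis) and with DEX (y axis); grey points are all measured genes, green circles the other pathway genes and orange squares the receptors, ligands and effectors. Jag1 lies at 0.56 and 0.45 and Gja4 at 1.17 and 1.07 in the upper right, and Kat2b at −1.06 and −0.96 in the lower left; 144 genes with larger differences fall outside the axes.

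Genes holding either of 2 heptamers in the 3′ untranslated region had lower medians with GR siRNA. The heptamers were chosen with earlier results of these same data known, so the medians below are no independent test of them. Genes were not matched for the length of the 3′ region. An siRNA can lower mRNAs other than its target when their 3′ regions pair with its seed, and genes holding TTCTGAA or TCTGAAA there were lower with GR siRNA: the 2475 such genes of at least 5 FPKM (29.5% of 8396) had medians of −0.08 without DEX and −0.07 with DEX, beside 0.00 and 0.01 for the rest. No source used here gives the siRNA sequence, and the part of these heptamers in any value was not tested. Jag1, Dll4, Notch4, Notch1, Jag2 and Hes1 hold neither of them. With each match of a heptamer counted separately, Hey1 and Notch2 hold 1 each, Neurl1b 5, Kdm5a 4 and Kat2b 3. Matches can overlap, and those of Kat2b lie in 2 sites, of which the second joins both heptamers. Gja5 and Tle4, which were higher with GR siRNA, hold 2 and 1 matches. Nrarp, Cdkn1a, Foxc1, Hes6 and Lfng, which were lower, hold none. Only the longest annotated 3′ region of each gene was searched, and what lowered or raised these genes was not tested. Over the wider pathway 19 of 64 genes hold at least 1, with medians of −0.09 and −0.15 beside −0.03 and −0.02 for the others. The sites of the lower genes Hey1 (minus strand of chromosome 3) and Kat2b (plus strand of chromosome 17) are shown from GENCODE transcripts on GRCm38, with the heptamer in capitals.
Hey1, site, chr3:8663642-8663670: agcgatcggagTCTGAAAgtagcttggtg
Kat2b, first site, chr17:53671278-53671306: agtttattttaTTCTGAAggactttaaag
Kat2b, second site, chr17:53671410-53671439: gctttgagcagTTCTGAAAaaaaaaaatgc

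Markers of other cells were read beside these results. Dcn, a fibroblast proteoglycan, stood at 0.387 and 0.297 FPKM in the control columns and at 1.99 and 2.73 FPKM in the GR siRNA columns, the direction of Jag1. Of the mural markers above 1 FPKM, Acta2 went the same way (5.65 and 5.60 against 8.82 and 7.71 FPKM) and Tagln the other (8.76 and 7.48 against 7.87 and 7.04 FPKM), and the list summed to 14.1 to 15.6 FPKM in the control columns and 15.7 to 17.9 FPKM in the GR siRNA columns. Flt4, a receptor gene of lymphatic and sprouting endothelium, was at 28.0 and 27.2 FPKM against 20.3 and 17.9 FPKM, the direction of Dll4. Lyve1, a hyaluronan receptor of lymphatic and some other endothelium, differed more, at 373 and 348 FPKM against 191 and 192 FPKM (−0.96 and −0.85), and the lymphatic list summed to 375 to 401 FPKM against 210.3 to 211 FPKM. Of the 8 endothelial markers 1 passed 0.32, where 16.6% of all genes did without DEX and 16.5% with DEX. It was the tight junction gene Cldn5, at 493 and 525 FPKM against 368 and 332 FPKM (−0.42 and −0.66). Their part in the Notch results was not tested. In bulk RNA a smaller share of cells of a type and less RNA per cell cannot be told apart.

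For the members with the widest range over the columns, the genes of most similar profile were sought among 8629 genes of at least 5 FPKM, by the root mean square distance of centred log2(FPKM + 1) values over 4 columns. For Jag1 they were Fkbp10 (distance 0.012), Pfkl (0.021) and Pcyox1l (0.023). Fkbp10 stood at 37.6 and 39.3 FPKM in the control columns and 56.0 and 53.4 FPKM in the GR siRNA columns. For Notch4 they were Mppe1, Pim3 and Msmp, at 0.016, 0.016 and 0.018. Over only 4 columns such likeness is common: 334 genes lay within 0.1 of Jag1 and 1058 within 0.1 of Notch4.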

How the data were processed

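RNA was sequenced from 4 samples, 1 per condition, each with 1 column in the deposited table. The values are FPKM as deposited by the authors; per the submitters' processing notes they used TopHat2 and Cuffdiff on mm10. No source used here gives versions, annotation, strand setting or how replicates were treated. Ambiguous reads are assigned by an estimate; at most 4.28% of a member's 31-mers occur in another gene (Notch2).

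Differences were taken on log2(FPKM + 1) for genes of at least 1 FPKM in a column compared, which understates changes of low genes, and counted past 0.32 and past 0.58 (1.5-fold). There is no test. Depth was the inverse of the modal FPKM of 1 fragment in low genes with 1 annotated transcript over 800 nt, and fragments per member used the longest transcript (GENCODE M21); errors cover counting only. Scripts (Python 3.11.15) were tested on simulated data.

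The members, lists and motifs were chosen with earlier results of these data known. The naming rule took the members, Nr3c1, up to 3 genes per list by siRNA difference and any marker. A gene it took is not reported here. Dlk1, Dlk2, Dll3, Dner, Rbpj, Hes6, Gja5, Efnb2, Hes5 and Heyl were named after their values were seen, as was the centring on GC content and length.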

Additional observations from a re-analysis of the deposited data

Results flagged for a closer look

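For 3 of the 8 measured genes the DEX difference had opposite signs in the siRNA arms, which is why they are listed; with 1 column per condition the difference between the arms was not tested. Notch4 stood at 0.01 and −0.25, in control siRNA and in GR siRNA cells respectively, Jag1 at 0.03 and −0.08, and Jag2 at 0.09 and −0.08. Opposite signs were common among all genes, at 48.8% of 11445. After centring on GC content and length, Notch4 stood at −0.03 and −0.13, with 1 sign, and Jag2 at 0.05 and 0.04.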

How the results depend on the processing

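Pseudocounts of 0.1 and 5, no filter on low values, a filter at 5 FPKM, upper quartile and median ratio rescaling, and centring on GC content and length (added after the data were seen) were tried. No member's difference past 0.32 changed sign. Of 218 alternative values of single members, 213 moved by less than 0.1 on the log2 scale and 5 moved by more. The count past 0.32 with GR siRNA and no DEX was 1, and it was 2 with a pseudocount of 0.1 and 2 with GC and length centring, where Dll4 joined Jag1. Centring took Notch1 with GR siRNA and no DEX from 0.23 to 0.14 and Jag2 from 0.03 to −0.08. The count past 0.32 with GR siRNA and DEX was 2, and it was 3 with a pseudocount of 0.1, where Hey1 (−0.37) joined. The medians and the remaining counts over members stayed within 0.1 or within 1.5 times. No paired analysis was possible because each condition has 1 column, and no replicate could be left out. Depth limits Notch3 and Hey2 in every column.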
